A study of Mus musculus with 9 samples.

Results

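Elastin and the proteins that build elastic fibres were followed in mouse embryonic fibroblasts (MEFs) of 3 genotypes. The 10 genes were taken by name, as those of elastin (Eln), a fibrillin (Fbn2), fibulins (Fbln1, Fbln2, Fbln5 and Efemp1) and other microfibril proteins (Mfap2, Mfap4, Mfap5 and Emilin1). They were chosen with earlier results of these data known, so counts over them are descriptions and no set test was run. They are 10 of the 19938 genes measured, and each has 1 probe set on the array. The study asked why connective tissue is defective in mice that lack thiol oxidases of the endoplasmic reticulum (ER), and used MEFs as a culture model of that tissue. RNA was hybridised to Affymetrix Gene ST arrays, 3 for each genotype. The reference cells are labelled wild-type (WT). Double mutant (DM) MEFs carry mutant alleles of both ERO1 isoforms, Ero1α m/m and Ero1β m/m, and triple mutant (TM) MEFs carry both of these together with Prdx4 m/y, a mutant allele of the X-linked peroxidase gene Prdx4. The labels give all 9 arrays the same genetic background, C57B/L6, and describe all the cells as transformed with T antigen. The methods on cell isolation, which used mid-gestation embryos, name primary MEFs for some figures and immortalised MEFs for others, without naming the arrays. They give a control that itself carries Ero1α m/+ and Ero1β m/m, and list Prdx4 +/+ for control and DM MEFs. Whether the 3 arrays of each genotype stem from independent cultures is not stated in either source. The p-values below therefore rest on a spread between arrays that may be technical.

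An elastic fibre has a core of elastin, which lysyl oxidases cross-link, laid down on a scaffold of fibrillin microfibrils. Fibulins join the tropoelastin monomer to the microfibril and to the cross-linking enzymes. Fibrillins and fibulins are built of cysteine-rich domains whose disulfide bonds are made in the ER, while tropoelastin holds few cysteines. These fibres give recoil to skin, lung and large arteries, and are made mainly before birth and in early life.

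The mutated genes, the markers of the cell type and the sex-linked genes were examined first. The log2 level of Ero1a was 11.86 ± 0.020 in WT, 9.46 ± 0.052 in DM and 9.06 ± 0.076 in TM MEFs, and that of Prdx4 was 10.56 ± 0.11, 10.68 ± 0.22 and 6.30 ± 0.41 (mean ± SD, n = 3 arrays, as for all levels here). Ero1b was at 7.65 ± 0.11, 7.70 ± 0.023 and 7.94 ± 0.081, with no lower level in the mutants. The fibroblast genes Col1a2 and Pdgfra were lower in DM than in WT MEFs, by log2 differences of -1.71 and -1.91, and Thy1 was higher in TM by 2.93. Of 11 markers of mesothelium and simple epithelium 7 were higher and 1 was lower in DM than in WT, with Upk3b at 7.19 ± 0.029 in WT and 12.26 ± 0.18 in DM. The summed linear signal of these markers was 5355 to 5631 in WT, 17670 to 19330 in DM and 1878 to 2064 in TM arrays. Of 14 markers of smooth muscle and pericytes 5 were higher in TM than in WT, and their summed signal was 21530 to 22740 in WT, 20100 to 21640 in DM and 34470 to 35460 in TM arrays. Of 12 fibroblast markers 2 were higher and 3 lower in DM, 5 were higher and 1 lower in TM, and the summed signal was 36060 to 37160, 35940 to 36180 and 42560 to 43560. These sums weigh the brightest genes most. Acta2 was at 13.51, 13.79 and 14.06 in WT, DM and TM, and Vim at 14.18, 14.16 and 14.15, neither called in any comparison. Of the 14 smooth muscle and pericyte markers, 6, 7 and 6 had means below the array medians in WT, DM and TM. Of 38 markers of endothelium, leukocytes, cartilage and bone, and skeletal muscle, 1 was higher and 1 lower in DM than in WT. In TM against WT 0 of them were called by limma. At an unadjusted limma p under 0.05 and no fold limit, 6 were higher and 2 lower in TM against WT, beside 3307 and 4481 of all 19938 genes. Over all genes, 5.28% were called higher and 5.67% lower in DM against WT, and 5.59% and 3.56% in TM against WT. Levels of the X-inactivation RNA Xist stood at 5.70 ± 0.053 in WT, 12.56 ± 0.068 in DM and 5.72 ± 0.099 in TM, so that DM cells also differ from the others in sex-linked genes. In RNA from whole cultures, fewer cells of a type and less RNA per cell cannot be told apart.

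Most elastic fibre genes, but not elastin itself, were called higher in TM than in WT MEFs. Of the 10 genes, 7 rose (Fbn2, Fbln1, Fbln2, Fbln5, Efemp1, Mfap4 and Mfap5) and 0 fell. A gene was called with limma when its fold exceeded 1.5 (0.585 on the log2 scale) and its p after Benjamini-Hochberg adjustment was under 0.05. All 10 differences were above 0, so no test or threshold could call a gene lower. At an unadjusted limma p under 0.05 and no fold limit, 10 of the 10 were higher, beside 3307 of all 19938 genes. Over all genes, 5.59% were called higher and 3.56% lower in this comparison. In DM against WT, 3 of the 10 rose (Efemp1, Emilin1 and Fbln1) and 1 fell (Mfap2), where 5.28% of all genes were higher and 5.67% lower. Compared directly, 6 of the 10 were higher and 1 was lower in TM than in DM, beside 4.68% and 3.61% of all genes. The median log2 difference of the 10 genes was 0.09 in DM against WT, 0.95 in TM against WT and 0.75 in TM against DM, where the medians over all genes were 0.0245, -0.0285 and -0.0456. The arrays of the compared genotypes did not overlap for 8 of the 10 genes in DM against WT, 10 in TM against WT and 9 in TM against DM. Such separation held for 46.4%, 43.4% and 40.1% of all genes, so for these arrays it is common. The comparisons share arrays, so their values are given side by side and were not correlated.

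**Figure D1:**
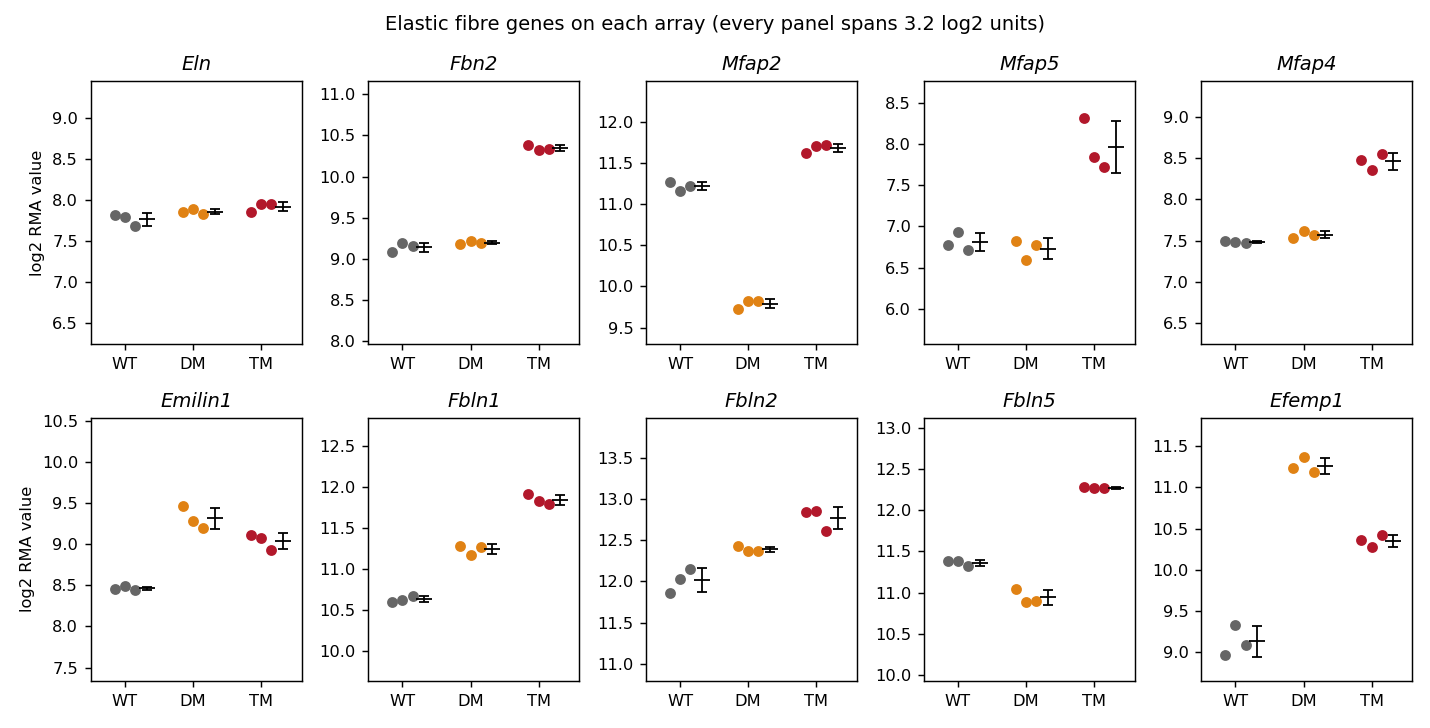
Log2 RMA values of the 10 elastic fibre genes on each array of WT (grey), DM (orange) and TM (red) MEFs. Points are single arrays, and the black marks beside them are means with SD (n = 3 arrays). Every panel spans the same range of log2 units, so distances can be compared between panels while absolute levels cannot. Eln is nearly level, Mfap2 is low in DM, Efemp1 is highest in DM, and Fbn2, Mfap4 and Mfap5 are raised in TM.

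Eln, which encodes tropoelastin, was not called in any comparison. Its 3 arrays were at 7.81, 7.80 and 7.68 in WT, 7.85, 7.88 and 7.83 in DM, and 7.86, 7.95 and 7.95 in TM MEFs. The 3 WT arrays lay below those of both mutants, and DM and TM arrays overlapped. The log2 difference from WT was 0.092 in DM (95% confidence interval -0.037 to 0.22, adjusted p = 0.261 from limma) and 0.16 in TM (0.029 to 0.29, adjusted p = 0.0624 from limma). Both intervals lie inside the 1.5-fold limit. The Eln level was 0.13 above the median of all probe sets in WT, 0.15 above it in DM and 0.23 above it in TM, a position that depends on the probes as well as on the amount of mRNA. Ckm and Tnnt3, markers of skeletal muscle, stood at 7.88 and 7.86 in WT, and 6 of the 10 markers of that list had WT means below the array medians. Whether the Eln signal is near the floor of the array was not tested. Many genes are as level as Eln, and 3208 genes outside the list had a profile over the 9 arrays within a root mean square distance of 0.1 log2 units of its own. The closest were Efs, Rpl23a and Ccdc130, at 0.0312, 0.0367 and 0.0382.

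The microfibril genes were of 3 kinds. Fbn2, Mfap4 and Mfap5 were raised in TM MEFs and near their WT level in DM, Mfap2 was low in DM, and Emilin1 was highest in DM. Fbn2 encodes fibrillin-2, a backbone protein of microfibrils that is prominent in development. Its levels were 9.08, 9.19 and 9.15 in WT, 9.18, 9.22 and 9.19 in DM, and 10.38, 10.32 and 10.33 in TM arrays. WT and DM arrays overlapped and all TM arrays were higher. Fbn2 rose by 1.20 in TM against WT (SE 0.054, adjusted p = 2.97e-09 from limma), which is 2.30-fold, and was higher in TM than in DM by 1.15 (adjusted p = 5.49e-09 from limma). In DM its difference from WT was 0.055, with an interval of -0.063 to 0.17 that stays inside the 1.5-fold limit.

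Mfap4 encodes a glycoprotein with a fibrinogen-related domain that binds elastic fibres, and Mfap5 encodes MAGP-2, a small protein bound to fibrillin. Mfap4 was at 7.50, 7.48 and 7.47 in WT, 7.53, 7.61 and 7.57 in DM, and 8.49, 8.35 and 8.56 in TM arrays, and rose by 0.98 in TM (SE 0.062, adjusted p = 7.69e-08 from limma). Mfap5 was at 6.78, 6.93 and 6.72 in WT, 6.83, 6.59 and 6.77 in DM, and 8.32, 7.85 and 7.73 in TM arrays. Its TM arrays were the most spread of the 10 genes in any genotype, with an SD of 0.31, and still all lay above every other array. Mfap5 rose by 1.16 in TM (SE 0.13, adjusted p = 1.54e-05 from limma) and its DM difference was -0.078 (interval -0.36 to 0.20). The Mfap5 mean was 0.83 below the median of all probe sets in WT, 0.98 below it in DM and 0.28 above it in TM. For Mfap4 the mean was 0.152 below that median in WT, 0.135 below it in DM and 0.779 above it in TM.

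Mfap2 encodes MAGP-1, the paralog of MAGP-2, and was the 1 gene of the 10 that fell in DM MEFs. Its arrays were at 11.26, 11.16 and 11.22 in WT, 9.72, 9.82 and 9.83 in DM, and 11.63, 11.70 and 11.72 in TM. The DM arrays lay far below all others, and the TM arrays above the WT arrays. The log2 difference from WT was -1.43 in DM (SE 0.058, adjusted p = 1.02e-09 from limma), a level 0.372 times that of WT. In TM it was 0.47, which passed the adjusted p (4.22e-05 from limma) but not the 1.5-fold limit. Between TM and DM the difference was 1.89 (adjusted p = 9.76e-11 from limma), the widest of the 10 genes in that comparison. Its paralog Mfap5 was not called in DM against WT, and the difference between the paralogs was not itself tested.

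Emilin1 encodes a protein found at the interface of elastin and microfibrils that also limits the processing of the TGF-β precursor. It was at 8.45, 8.49 and 8.45 in WT, 9.46, 9.28 and 9.20 in DM, and 9.11, 9.07 and 8.93 in TM arrays, with no overlap between any genotypes. It rose by 0.85 in DM (SE 0.074, adjusted p = 1.51e-06 from limma). In TM the difference was 0.576, or 1.49-fold (adjusted p = 5.79e-05 from limma), just under the fold limit. The TM level was below the DM level, by a log2 difference of -0.27 that passed the adjusted p (0.0133 from limma) and not the fold limit.

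**Figure D2:**
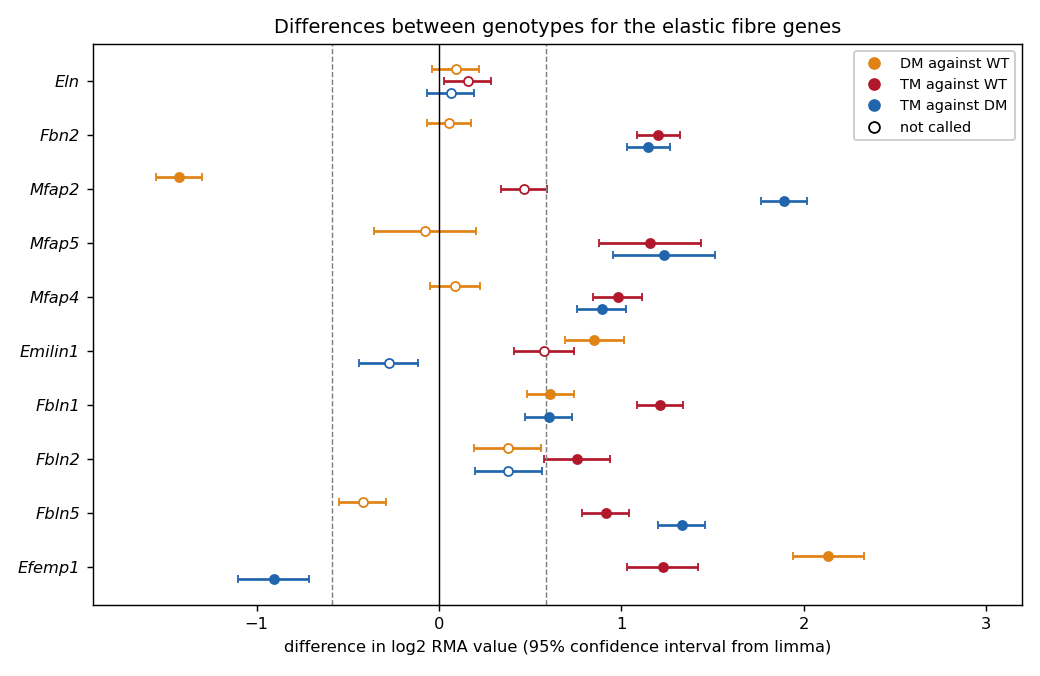
Log2 differences of the 10 genes for DM against WT (orange), TM against WT (red) and TM against DM (blue), with 95% confidence intervals from limma on the horizontal axis. Filled points were called, open points were not, and dashed lines mark 1.5-fold. Efemp1 at 2.13 and Mfap2 at -1.43 are the outermost orange points, and no red point lies below 0.

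The fibulins of the list were all higher in TM than in WT MEFs but took different levels in DM. Outside the list, Fbln7 differed by 0.41 in TM against WT and was not called, and the fibulin gene Efemp2 was not analysed. Fbln1 and Fbln2 encode fibulins that bind fibronectin and basement membrane proteins as well as elastic fibres, and both stood between WT and TM in DM. Fbln1 was at 10.60, 10.62 and 10.67 in WT, 11.29, 11.17 and 11.27 in DM, and 11.91, 11.83 and 11.79 in TM arrays. The arrays of the 3 genotypes formed separate levels at nearly equal distances. Fbln1 was higher by 0.61 in DM against WT (SE 0.059, adjusted p = 3.75e-06 from limma), by 0.60 in TM against DM (adjusted p = 5.36e-06 from limma) and by 1.21 in TM against WT (adjusted p = 6.08e-09 from limma). The DM call and the call of TM against DM lie close to the fold limit. With arrays centred on their medians the DM difference was 0.54, and with quantile normalization that of TM against DM was 0.57, both under the limit. Fbln2 showed the same order with smaller steps. It was at 11.86, 12.03 and 12.15 in WT, 12.43, 12.37 and 12.37 in DM, and 12.85, 12.85 and 12.61 in TM arrays. Each step, of 0.38 from WT to DM (adjusted p = 0.00335 from limma) and 0.38 from DM to TM (adjusted p = 0.0038 from limma), passed the adjusted p and not the fold limit. Across both, Fbln2 rose by 0.76 in TM against WT (SE 0.084, adjusted p = 1.52e-05 from limma).

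Fbln5 encodes fibulin-5, which binds tropoelastin and lysyl oxidase-like 1 and is needed for elastic fibre assembly. It was at 11.38, 11.38 and 11.32 in WT, 11.04, 10.89 and 10.90 in DM, and 12.29, 12.27 and 12.27 in TM arrays. The DM arrays were the lowest and the TM arrays the highest, without overlap. Fbln5 rose by 0.91 in TM against WT (SE 0.059, adjusted p = 9.33e-08 from limma) and was higher in TM than in DM by 1.33 (adjusted p = 2.97e-09 from limma). Its difference of -0.42 in DM against WT passed the adjusted p (0.000104 from limma) and not the fold limit. Fbln5 and Mfap2 thus had the order DM, WT, TM from low to high with every neighbour apart beyond its spread, and Mfap5 had the same order of means with WT and DM not separable.

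Efemp1 encodes fibulin-3, and its difference in DM was the largest among the 10 genes in any comparison. Its arrays were at 8.96, 9.33 and 9.09 in WT, 11.23, 11.37 and 11.18 in DM, and 10.35, 10.28 and 10.43 in TM. All mutant arrays were above all WT arrays, and DM above TM. Efemp1 rose by 2.13 in DM (SE 0.089, adjusted p = 1.31e-09 from limma), which is 4.39-fold, and by 1.23 in TM (adjusted p = 3.07e-07 from limma), which is 2.34-fold. The TM level was lower than the DM level by a log2 difference of -0.91 (adjusted p = 5.78e-06 from limma). Efemp1 and Emilin1 were the genes with the order WT, TM, DM from low to high. The summed signal of the mesothelial and epithelial markers was also highest in DM, with 7 of the 11 called higher and Msln called lower than in WT, and their part in these levels was not tested. In TM against WT 2 of the 11 were called lower (Msln and Krt19), 9 were not called, and the summed signal was lower. Whether this bears on Efemp1 was not tested. Outside the list, the genes closest to Efemp1 over the 9 arrays by root mean square distance of their centred log2 values were Ces2e, Creb3l1 and Pparg, at 0.083, 0.0993 and 0.108 log2 units. Creb3l1, a transcription factor gene of the ER membrane, was 2.04 above WT in DM and 1.24 above it in TM, and Pparg, the gene of an adipogenic nuclear receptor, 2.19 and 1.42.

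**Figure D3:**
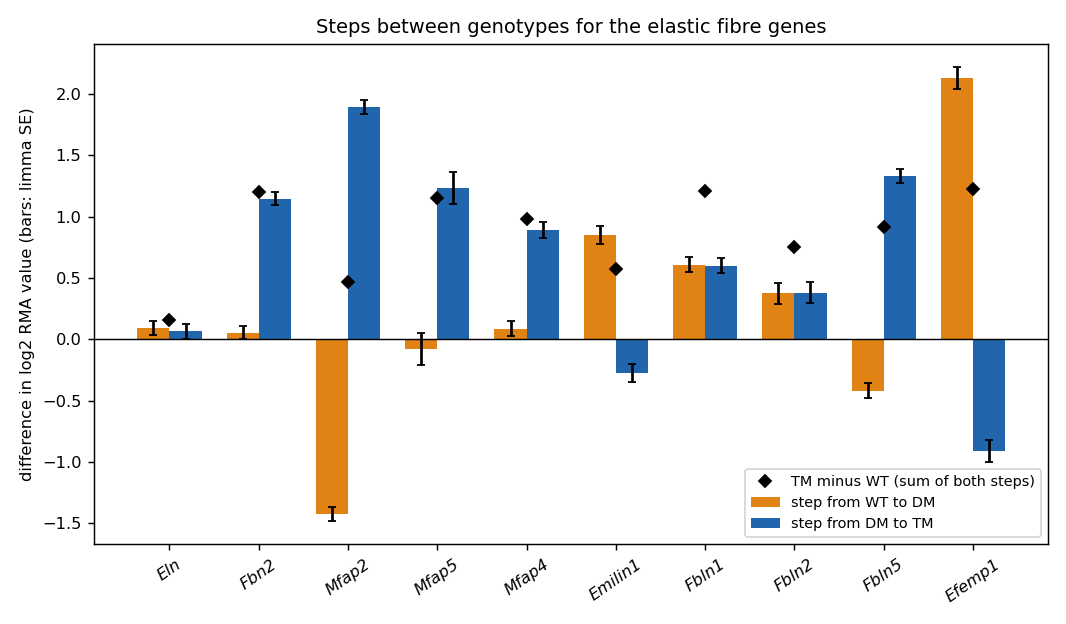
Log2 differences from WT to DM (orange bars) and from DM to TM (blue bars) for the 10 genes, with the SE from limma as error bars. Black diamonds are the difference of TM from WT, the sum of both bars. Fbln1 and Fbln2 have bars of nearly equal height. Mfap2, Fbln5 and, with a small first bar, Mfap5 have a downward first bar and a taller upward second bar. Efemp1 and Emilin1 have an upward first bar and a shorter downward second bar.

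Promoter windows in RefSeq's table for mouse build GRCm38.p6 matched 6 of the 10 genes. Those of Fbln1 and Fbln2, which moved by like steps, and of Efemp1 and Mfap2, which moved in opposite directions in DM, are shown as the 250 bases before the most upstream start, 5′ to 3′ on the strand of the gene. Capitals mark the letters of a GC box (GGGCGG), an AP-1 site (TGANTCA) or a TEAD site (CATTCC) on either strand.
Fbln1, chr15:85205699-85205948, plus strand: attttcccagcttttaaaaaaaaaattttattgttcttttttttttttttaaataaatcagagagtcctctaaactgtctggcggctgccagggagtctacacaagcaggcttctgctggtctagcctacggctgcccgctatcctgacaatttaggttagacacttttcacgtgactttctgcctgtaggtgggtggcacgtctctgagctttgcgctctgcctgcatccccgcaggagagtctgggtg
Fbln2, chr6:91212514-91212763, plus strand: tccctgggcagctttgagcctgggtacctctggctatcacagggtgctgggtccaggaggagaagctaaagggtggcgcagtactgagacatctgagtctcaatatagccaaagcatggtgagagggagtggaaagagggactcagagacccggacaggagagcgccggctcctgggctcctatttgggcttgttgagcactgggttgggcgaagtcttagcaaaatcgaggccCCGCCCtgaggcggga
Efemp1, chr11:28852955-28853204, plus strand: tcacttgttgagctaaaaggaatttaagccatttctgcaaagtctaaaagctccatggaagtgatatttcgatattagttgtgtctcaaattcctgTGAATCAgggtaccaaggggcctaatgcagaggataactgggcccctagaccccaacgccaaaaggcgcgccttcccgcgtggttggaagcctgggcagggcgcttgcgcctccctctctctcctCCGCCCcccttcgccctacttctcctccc
Mfap2, chr4:141010174-141010423, plus strand: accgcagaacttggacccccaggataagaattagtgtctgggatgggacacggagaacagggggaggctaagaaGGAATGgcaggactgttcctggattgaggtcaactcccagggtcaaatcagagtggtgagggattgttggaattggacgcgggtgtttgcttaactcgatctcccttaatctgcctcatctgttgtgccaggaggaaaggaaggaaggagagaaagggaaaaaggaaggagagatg
A GC box stood in 3 of the 6 windows (Fbln2, Fbln5 and Efemp1), where 33% of all 27026 such windows hold 1. The AP-1 letters were found in Efemp1 alone of the 6, and are in 6.85% of all windows, and the TEAD letters in Mfap2 alone, and are in 12.6%. No marked motif overlapped another. The letters of a TATA box (TATAAA, in 13% of windows) and of the SMAD CAGA element (AGCCAGACA, in 0.289%) were in none of the 6. The windows of Fbln1 and Fbln2 shared none of these motifs, and their GC content was 46.4% and 58.8%. These matches describe the letters of the windows and no binding was measured.

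Other genes that act on elastic fibres were read from lists of 51 partner genes, of which 47 were measured. Of the 47, 7 were higher and 6 lower in DM than in WT (14.9% and 12.8%, beside 5.28% and 5.67% of all genes). In TM against WT 4 were higher and 5 lower (8.51% and 10.6%, beside 5.59% and 3.56%). In TM against DM 6 were higher and 2 lower (12.8% and 4.26%, beside 4.68% and 3.61%). The same shares over all genes stand beside the counts of the smaller lists below. The median log2 differences of the 47 genes were -0.12, -0.03 and 0.0055 in these comparisons. The partner genes were called in both directions, whereas the calls of the 10 genes in TM against WT were all upward. Both lists were drawn up with earlier results of these data known, so this contrast describes the lists and was not tested.

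Cross-linking enzymes differed from each other. Of 4 lysyl oxidase genes measured, 1 rose and 1 fell in DM, and 2 rose in TM. Lox, which encodes the enzyme that cross-links elastin and collagen, was 12.03 ± 0.056 in WT, 13.08 ± 0.091 in DM and 13.41 ± 0.024 in TM. It rose by 1.06 in DM (adjusted p = 3.14e-08 from limma) and 1.38 in TM (adjusted p = 2.67e-09 from limma). Loxl1, the gene of the isoform that fibulin-5 binds, fell by 1.68 in DM (adjusted p = 3.56e-10 from limma), from 11.64 ± 0.078 to 9.95 ± 0.059, and was at 11.53 ± 0.047 in TM. Loxl1 thus shared with Mfap2 and Fbln5 a lowest level in DM. Loxl3 rose by 0.78 in TM (adjusted p = 1.94e-07 from limma).

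Among 11 genes of microfibrils and latent TGF-β binding proteins, 3 rose and 2 fell in DM, and 1 rose and 2 fell in TM. Ltbp2, which encodes a microfibril-associated protein, rose by 1.14 in DM and 2.24 in TM (adjusted p = 3.69e-08 and 8.09e-11 from limma). Its levels of 9.55 ± 0.056, 10.70 ± 0.025 and 11.79 ± 0.12 lay at nearly equal distances. Ltbp3, which encodes a latent TGF-β binding protein, rose by 0.73 in DM, with a difference of 0.056 in TM. Adamts6, the gene of a protease that acts on microfibrils, fell by 1.73 in DM, with a difference of -0.19 in TM. Thsd4, whose product promotes microfibril assembly, fell by 0.586 in DM, at the fold limit, and by 0.95 in TM. Among 7 other fibulin, hemicentin, EMILIN and multimerin genes, 1 rose and 1 fell in DM. Emilin2, the paralog of Emilin1, fell by 1.28 in DM (adjusted p = 2.54e-08 from limma), where Emilin1 rose. Mmrn1, which encodes the platelet and endothelial protein multimerin 1, rose by 2.36 in DM, from 4.89 ± 0.10 to 7.25 ± 0.048, a level below the array medians of 7.62 to 7.72.

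Of 10 elastin-degrading proteases 1 rose and 1 fell in DM and 1 fell in TM. Mmp2, the gelatinase A gene, rose by 0.64 in DM. Ctsk, which encodes the elastin- and collagen-degrading cathepsin K, fell by 1.66 in DM and 1.68 in TM (adjusted p = 2.15e-08 and 2.2e-08 from limma), from 7.97 ± 0.17 in WT to 6.31 ± 0.15 and 6.30 ± 0.066. Of 9 integrin genes 1 fell in DM, and 1 rose and 1 fell in TM. Itga8, the gene of an integrin subunit found on smooth muscle and other mesenchymal cells, rose by 2.40 in TM (adjusted p = 1.5e-10 from limma), from 6.49 ± 0.078 to 8.89 ± 0.15. The summed signal of the smooth muscle and pericyte markers was also highest in TM, with 5 of the 14 called higher than in WT, and their part in Itga8 and the other genes raised there was not tested. Itga4 fell by 1.27 in DM and 1.08 in TM. Of 3 genes of the elastin receptor complex 1 fell in TM, Glb1, by 0.66, and of 3 scaffold genes 1 rose in DM, Hspg2, which encodes perlecan, by 0.61.

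**Figure D4:**
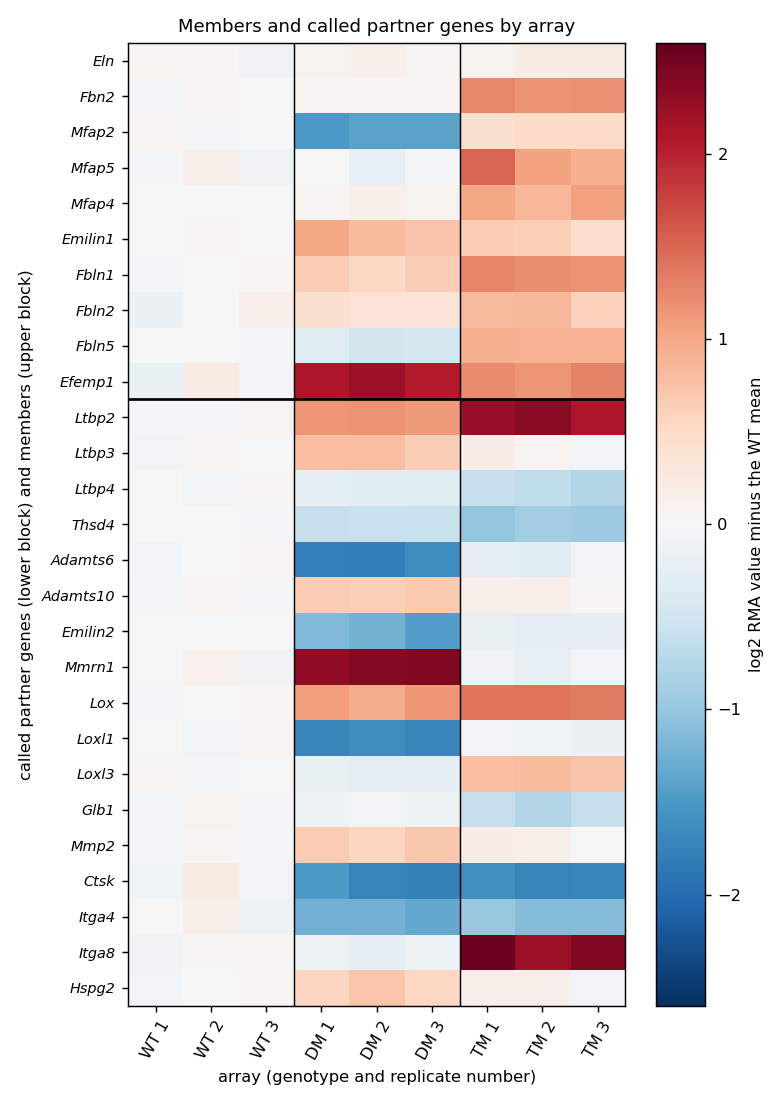
Log2 RMA value of each array minus the WT mean, for the 10 elastic fibre genes (upper block) and the partner genes called in at least 1 comparison (lower block). Columns are the 9 arrays, red is above the WT mean and blue below it. In TM arrays the upper block is red apart from the pale Eln row, while the lower block holds both colours, and Mfap2, Adamts6, Emilin2 and Loxl1 are blue in DM arrays.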

How the data were processed

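RNA of 3 genotypes of MEFs was hybridised to Affymetrix Gene ST arrays, 3 arrays each, grouped by the sample titles. The authors converted images with GCOS and used GeneSpring GX with RMA and PLIER. The deposited values are log2 RMA values, background-corrected, normalized between arrays and summarised per probe set by the authors, which takes out differences in total signal. Medians over probe sets were 7.62 to 7.72 on the 9 arrays. By genotype they were 7.623 to 7.650 in WT, 7.698 to 7.719 in DM and 7.674 to 7.696 in TM, without overlap. PLIER values were not used here, and no build for the array annotation is given in the sources used here.

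Of 35556 probe sets, 21789 have 1 gene symbol, 1621 several and 12146 none in the platform annotation. Where a gene had several, the one with the highest mean was used (19938 genes). Each of the 10 genes has 1 probe set with 1 symbol. In 1 of 30 sets of 3 arrays, Fbln5 in WT, 2 arrays hold 1 identical value.

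All 9 arrays were fitted in 1 model across all genes (limma 3.58.1, R 4.3.3, 6 residual degrees of freedom). Calls needed over 1.5-fold, the fold limit of the study's methods, and p under 0.05 after Benjamini-Hochberg adjustment. The fit was tested on simulated data. The genes, the partner and marker lists and the naming rule (all 10 genes, and up to 4 called partners of a list with the largest changes) were chosen with earlier results of these data known. The genes closest in profile were taken for Eln and for the gene with the largest TM difference. Motifs were chosen after the values were seen. The 4 partner genes Fbn1, Efemp2, Loxl2 and Fkbp10 were not analysed here. Alternatives were other scalings, thresholds, probe set choices and variance models, the methods' t-test, fits of 6 arrays, the replicate number as a block, and fits without each array in turn.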

Additional observations from a re-analysis of the deposited data

How the results depend on the processing

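Up to 23 alternatives were run, 9 of which leave out 1 array. Counts were recomputed under all 23, the medians under 17 (the other settings change only the test, the threshold or the arrays that share the fit), and differences under 23, or 22 for Mfap5, which the filter on dim genes removes. Of 687 recomputed differences of the 10 genes, 664 kept direction and call, 13 lost the call, 9 gained it and 1 reversed. The reversal was Fbn2 in DM against WT, not called in either fit, at 0.055 and, with median centring, at -0.0167. Counts of the 10 genes moved with the fold limit, whose construction sets this. Without it 2 genes were lower in DM against WT and 2 in TM against DM. With a 2-fold limit, 1 was higher in DM against WT, 4 were higher in TM against WT and 0 were lower in TM against DM. Called partner genes were 13, 9 and 8 in DM against WT, TM against WT and TM against DM, 30, 25 and 23 without a fold limit, and 8 and 5 in the first 2 with a 2-fold limit. They were 5 in TM against WT with dim genes left out, a filter that removes the called genes Thsd4, Ctsk, Itga4 and Itga8. Over all genes, 3398 were higher and 3942 lower in DM against WT without a fold limit and 527 and 358 with a 2-fold limit (1052 and 1131 with 1.5-fold). For TM against WT these were 2757, 3581, 558 and 223 (1115 and 709), and for TM against DM 3070, 3280, 408 and 268 (933 and 720).

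The median of the 10 genes was 0.0183 with median centring and 0.0421 with quantile normalization in DM against WT. In TM against WT it was 0.897 with median centring, 0.992 with cyclic loess and 0.914 with dim genes left out. In TM against DM it was 0.768 with median centring and 0.602 with dim genes left out, a filter that removes Mfap5. Without 1 array in turn it was 0.0698 to 0.107, 0.927 to 0.977 and 0.726 to 0.778 in the 3 comparisons. Near the fold limit, Emilin1 in TM was called with cyclic loess (0.62), without WT replicate 2 (0.588) and without TM replicate 3 (0.63). Fbln1 in TM against DM was not called with quantile normalization (0.57), with cyclic loess (0.58), without DM replicate 2 (0.567) or without TM replicate 1 (0.569), and in DM against WT it was not called with median centring (0.54). The cause of these moves was not tested.

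The titles give the genotypes the same replicate numbers. With the number as a replicate block, the counts of the 10 genes were unchanged, with 7 higher in TM against WT. Deviations of same-numbered arrays from their group means correlated at -0.239 to 0.168 across genes, over 0.1 in 1 of 9 pairs, so the numbers were not taken as pairs. The number of arrays limits the precision.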
